A study of Mus musculus with 6 samples.

Results

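The RNA polymerase I and III machinery was taken as the protein-coding genes whose GENCODE M21 symbols start with Polr1, Polr3, Gtf3c or Snapc, together with Rrn3, Ubtf, Taf1a, Taf1b, Taf1c, Taf1d, Brf1, Brf2, Bdp1, Crcp and Maf1. The 37 members are 37 of 55401 gene identifiers in the deposited count table, and all 37 passed the filter on low counts. They were read in 6 poly(A) RNA libraries of mouse embryonic stem (ES) cells, pluripotent cells kept in culture. The 3 libraries labelled KO came from cells given doxycycline, and the 3 libraries labelled 3XHA-Taf13 expressing came from cells with no treatment. Both were sampled after 7 days, each library from its own Petri dish. The series asks what becomes of transcription without Taf13, a subunit of TFIID, the factor that recruits RNA polymerase II. The sources used here do not give the genotype of the line, the promoter of the tagged Taf13 or the action of doxycycline on it. Effects of doxycycline and of the KO label cannot be told apart, since each KO dish had the drug. KO below means the libraries labelled KO.

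RNA polymerase I (Pol I) transcribes the ribosomal RNA genes in the nucleolus, where UBTF coats the repeats, the SL1 complex of TBP and TAF1 proteins marks the promoter, and RRN3 brings in the enzyme. RNA polymerase III (Pol III) transcribes the tRNA genes, the 5S ribosomal RNA genes and small RNAs such as U6 and 7SK. At tRNA genes TFIIIC binds promoter elements inside the gene and places TFIIIB (TBP, BDP1 and BRF1), while at U6 and 7SK the SNAPc complex works upstream with BRF2. The messages of all these proteins are themselves made by RNA polymerase II, so the table measures the supply of messages for the machinery, not the activity of either enzyme.

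The libraries held 33953189, 43346441 and 50328010 counts in KO 1, 2 and 3, and 31219328, 45957003 and 38561980 counts in expressing 1, 2 and 3. The members took 0.374% to 0.379% of the counts in KO and 0.381% to 0.394% in expressing cells. Taf13 itself (ENSMUSG00000048100, chr3:108571698-108583222, mm10) had 12.1, 14.1 and 13.5 counts per 1000000 (CPM, scaled by TMM) in KO, against 7.82, 10.1 and 12.2 CPM in expressing cells. The groups overlapped by 1 expressing library, and the KO label is not borne out by a lower Taf13 count (log2 fold change 0.40, SE 0.147, adjusted p = 0.0578 in edgeR's quasi-likelihood test). Under 9 of 14 alternative settings, DESeq2 among them, Taf13 was called higher in KO, with log2 fold changes of 0.28 to 0.57 over all 14 and adjusted p-values from 0.00257 to 0.166. The table does not separate tagged from endogenous transcripts, and the sources used here do not say which exons were altered, so this count does not check the labels. Pairs of KO libraries differed by a chi-square per degree of freedom of 3.49 to 6.20. In expressing cells, libraries 2 and 3 gave 3.88, but expressing 1 stood apart, at 37.9 against expressing 2 and 30.8 against expressing 3. Its deviations from the group mean also followed gene GC content across genes (r = 0.553, against -0.443 in expressing 2 and -0.284 in expressing 3).

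All 12 ES cell markers were present in both groups, and 11 of them were lower in KO, where 20.8% of all genes tested were lower. Their summed level was 3486 to 3550 CPM in KO and 4842 to 5030 CPM in expressing cells. The calls of Utf1 and Sox2 were lost under 6 and 4 of 14 alternative settings. All 12 primitive endoderm markers were higher in KO, where 19.2% of all genes were higher. They had 1075 to 1098 CPM in KO and 386 to 466 CPM in expressing cells. Of 11 fibroblast markers tested, 4 were higher and 1 was lower, with 125 to 219 CPM in KO and 134 to 168 CPM in expressing cells. The call of the fibroblast marker Prrx1 was lost under 7 of 14 alternative settings. Without KO 2, 3 fibroblast markers were higher and 3 lower, where 28.8% of all genes passed. Their median log2 fold change was then -0.24, against 0.15 with all libraries. The part of the marker shifts in the results on the machinery was not tested. In bulk RNA, fewer cells of a type and less RNA per cell cannot be told apart, and p-values here cover the spread between dishes.

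Of the 37 members, 1 was higher and 11 were lower in KO at an adjusted p under 0.05, and 25 did not pass. Among all 17778 genes tested, 40.0% passed, with 19.2% higher and 20.8% lower. The members' 32.4% lay below the background in total, with 2.70% higher and 29.7% lower. The changes were small. The members' median log2 fold change was -0.10, against -0.01 for all genes, and their median absolute change was 0.160, against 0.285. A change that passed and reached 0.5 on the log2 scale was seen for 2 members, Polr3gl and Taf1d, against 22.4% of all genes. KO and expressing libraries did not overlap for 17 members, 15 with KO below and 2 with KO above, where 53.5% of all genes did not overlap (27.1% with KO below and 26.4% with KO above). By enzyme, 5 of 11 Pol I members were lower and 0 were higher (median -0.18), and 6 of 26 Pol III members were lower and 1 was higher (median -0.04). Polr1c, which was lower, and Polr1d, which did not pass, serve both enzymes and were counted with Pol I alone. No Pol I member was higher by DESeq2 or at an unadjusted p under 0.05, but Polr1d was called higher without expressing 1 (adjusted p = 0.0188) and with the GC trend removed (adjusted p = 0.0493). Leaving out expressing 1 gave 5 higher and 17 lower members, where 50.9% of all genes passed. Leaving out any 1 KO library gave 0 higher and 7 or 8 lower members, where 28.8% to 29.7% of all genes passed. Among all genes, 2541 to 2700 were then higher and 2627 to 2779 lower, and the cause of the changed member counts was not tested. With library totals in place of TMM, 5 members were higher and 7 lower, where 63.5% of all calls were higher, against 48.1% in the reported fit. For 23 of the 25 members that did not pass, the 95% interval of the log2 fold change lay within 0.5 of 0 on both sides.

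**Figure D1:**
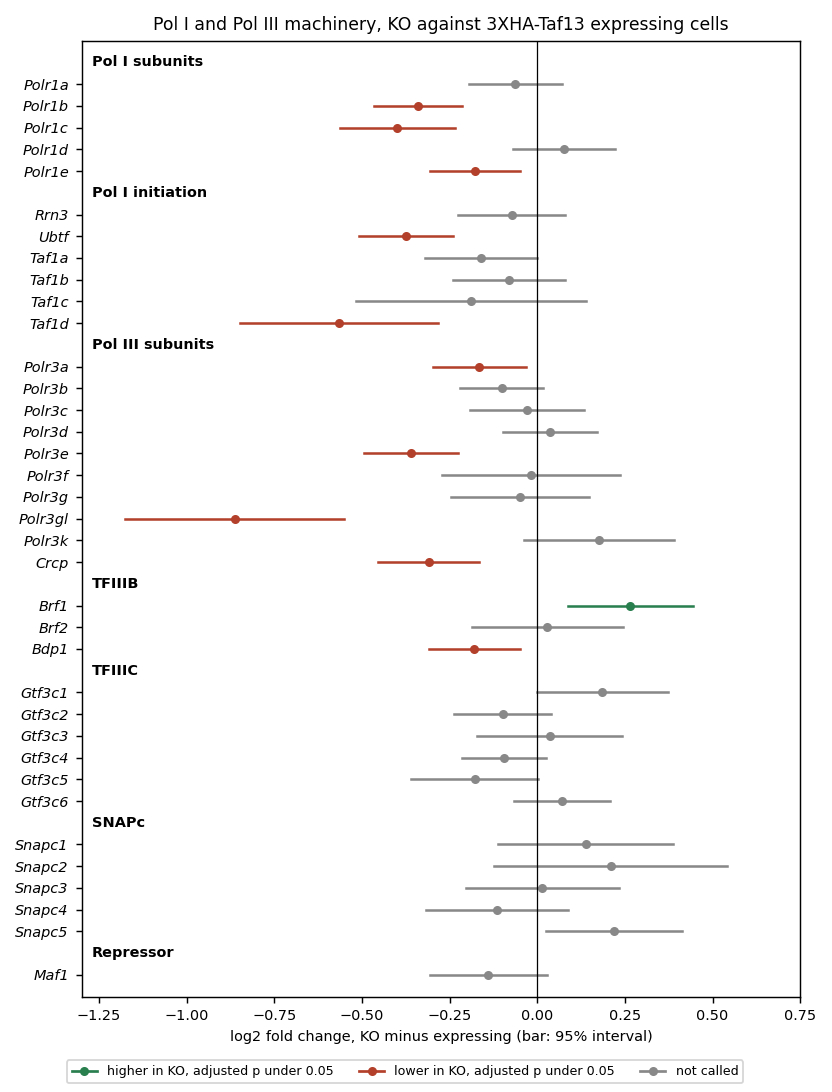
Log2 fold change (KO minus expressing) of 36 members on the horizontal axis, grouped by complex, with points for the estimate and bars for its 95% interval from edgeR (3 libraries per group). The 10 members in red were lower and Brf1 in green was higher in KO, and Polr3gl lies farthest from 0 at -0.86.

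**Figure D2:**
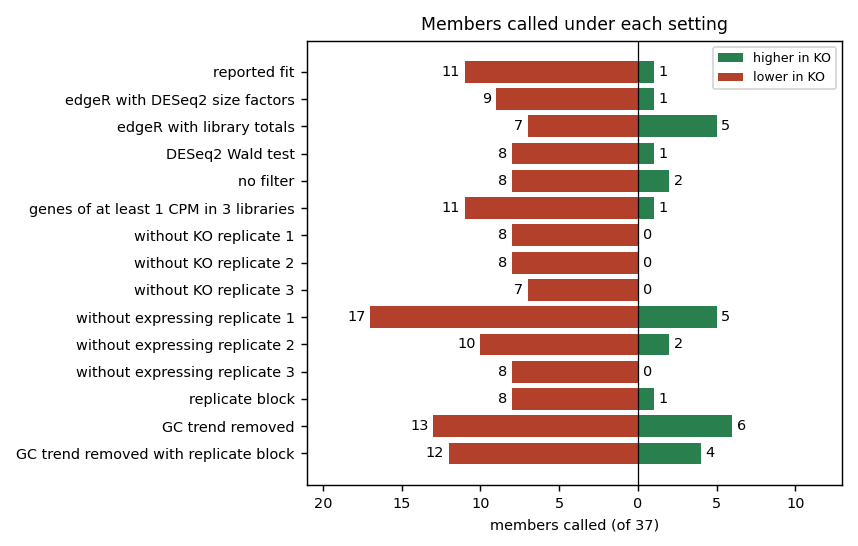
Number of the 37 members called lower (left) or higher (right) in KO under the reported fit and 14 alternative settings. The reported fit gave 11 lower and 1 higher, and leaving out expressing 1 gave 17 lower and 5 higher.

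Promoter windows from RefSeq (assembly GRCm38.p6), 250 bases before to 50 bases after an annotated start, were found for 30 of the 37 members. The windows of Polr3gl and Polr3g are shown because these genes encode alternative forms of the same Pol III subunit and had different values in KO, and that of Polr3e because a tRNA gene lies across its edge. Capitals mark matches on either strand to the E-box CACGTG, bound by MYC-type factors, to the GC box GGGCGG, and to the B box, searched as GGTTCGA, 2 bases of any kind and CC, the internal element of tRNA genes that TFIIIC binds. The windows are chr3:96594132-96594431 (minus strand), chr13:81710964-81711263 (minus strand) and chr7:120917528-120917827 (plus strand), written 5′ to 3′ along the transcript.
Polr3gl: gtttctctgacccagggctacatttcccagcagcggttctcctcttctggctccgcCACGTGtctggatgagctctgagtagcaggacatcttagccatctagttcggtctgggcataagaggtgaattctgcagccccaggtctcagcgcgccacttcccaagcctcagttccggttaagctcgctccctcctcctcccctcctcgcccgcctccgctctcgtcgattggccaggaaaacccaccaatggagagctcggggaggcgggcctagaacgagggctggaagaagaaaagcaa
Polr3g: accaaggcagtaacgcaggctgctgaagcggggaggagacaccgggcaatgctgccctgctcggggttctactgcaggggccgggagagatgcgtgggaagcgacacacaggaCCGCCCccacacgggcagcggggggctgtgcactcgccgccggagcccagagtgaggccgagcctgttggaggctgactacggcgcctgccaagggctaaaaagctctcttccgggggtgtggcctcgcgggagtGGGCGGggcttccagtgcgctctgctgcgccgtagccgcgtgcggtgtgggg
Polr3e: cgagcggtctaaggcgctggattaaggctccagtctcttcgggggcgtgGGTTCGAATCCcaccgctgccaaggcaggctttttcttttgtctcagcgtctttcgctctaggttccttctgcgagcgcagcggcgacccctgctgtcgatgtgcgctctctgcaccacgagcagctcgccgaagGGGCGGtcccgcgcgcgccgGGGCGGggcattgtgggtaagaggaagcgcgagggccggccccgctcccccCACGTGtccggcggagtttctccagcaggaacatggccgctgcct

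The Polr3gl window held 1 match, an E-box whose first base lies at -194 from the start. The Polr3g window held 2 GC boxes, at -137 on the opposite strand and at -2, and no E-box. The Polr3e window held a B box at -201, GC boxes at -66 and -46, and an E-box at 5. The 30 members had 38 windows, since some have several starts. An E-box was found in 6 of the 38 (15.8%), of Gtf3c6, Polr3c, Polr3e, Polr3gl and Rrn3, against 7.15% of all 32851 windows. GC boxes were found in 23 of the 38 (60.5%), against 35.7% of all windows, and the TATA box TATAAA in 1, of Gtf3c6, against 13.6%. The B box was found in 40 windows of the whole table (0.122%), and Polr3e was the 1 member among them. These matches describe letters in a window and not bound sites. The background held all windows with no filter on expression, while every member passed the count filter. Shares among windows of expressed genes were not tested. The B box in the Polr3e window belongs to the leucine tRNA gene that RefSeq lists as n-TLaag4 (chr7:120917517-120917598), 146 bases before the GENCODE M21 start of Polr3e, which is not the RefSeq start that the window and motif positions count from. Polr3e was the 1 member with a tRNA gene within 1000 bases of its GENCODE start, as were 38 of 22028 protein-coding genes (0.173%), and the next nearest was Polr3gl at 92663 bases. Counts of tRNAs were not analysed here.

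Among the Pol I subunits, 3 of 5 were lower in KO (60%, against 20.8% of all genes tested). Polr1a, which encodes the largest catalytic subunit, had 351, 349 and 353 CPM in KO, against 393, 355 and 352 CPM in expressing cells. The groups overlapped, and it did not pass (log2 fold change -0.06, SE 0.0588, adjusted p = 0.427). Polr1b, the other large subunit of the catalytic core, had 188, 186 and 187 CPM in KO, against 249, 229 and 233 CPM in expressing cells. Every KO library was below every expressing library, with means of 187.1 ± 0.586 CPM in KO and 236.9 ± 11.03 CPM in expressing cells (SD, n = 3 each), and edgeR gave a log2 fold change of -0.34 (SE 0.0558, adjusted p = 0.00123). Polr1c, an assembly subunit that Pol I and Pol III share, had 96.6, 93.6 and 87.8 CPM in KO, against 134, 115 and 117 CPM in expressing cells. It fell by 0.40 on the log2 scale (SE 0.0733, adjusted p = 0.00228), with no overlap. Its partner Polr1d, also shared by both enzymes, had 84.97, 86.0 and 90.6 CPM in KO, against 86.4, 84.4 and 77.4 CPM in expressing cells. That pair of assembly subunits thus had 1 member that passed and 1 that did not (Polr1d log2 fold change 0.08, SE 0.0646). Polr1e, a subunit of the Pol I-specific dimer that binds initiation factors, had 65.2, 65.9 and 66.7 CPM in KO, against 77.0, 72.6 and 74.1 CPM in expressing cells. Its log2 fold change was -0.18 (SE 0.0571, adjusted p = 0.0332), and the call was lost under 9 of 14 alternative settings.

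Of the 6 Pol I initiation factors, Ubtf and Taf1d were lower in KO (33.3%, against 20.8% of all genes tested) and 0 were higher (against 19.2%). Ubtf (ENSMUSG00000020923, chr11:102304560-102319742), whose protein keeps the ribosomal repeats open, had 205, 195 and 209.6 CPM in KO, against 277, 252 and 262 CPM in expressing cells. The groups did not overlap, and the log2 fold change was -0.37 (SE 0.0595, adjusted p = 0.00103), so the KO mean was 77.1% of the expressing mean. Taf1d (ENSMUSG00000031939, chr9:15306214-15316991), a subunit of SL1, had 154, 141 and 148 CPM in KO, against 169, 237 and 249 CPM in expressing cells. All KO libraries lay below all expressing libraries, expressing 1 being the nearest, and the log2 fold change was -0.57 (SE 0.125, adjusted p = 0.00611). Without expressing 1 it was -0.69. The exons of Taf1d overlap those of Cep295 on the other strand, which had 8962, 11378 and 13189 counts in KO, against 7412, 12057 and 9664 counts in expressing cells. They also overlap exons of 4931406C07Rik on the other strand (514 to 925 counts per library). Several genes on the same strand as Taf1d overlap its exons too, each with 0 counts in all 6 libraries. The kit keeps strand, but the sources used here do not give the counting option. The effect of either kind of overlap on the Taf1d counts was not tested. Rrn3, the factor that links Pol I to SL1, had 379, 366 and 392 CPM in KO, against 362, 414 and 419 CPM in expressing cells. Expressing 1 lay below the KO range and the other expressing libraries above it, and Rrn3 did not pass (log2 fold change -0.07, SE 0.0678, adjusted p = 0.418). Without expressing 1, Rrn3 was called lower (log2 fold change -0.11, adjusted p = 0.00952). The remaining SL1 subunits also did not pass, with log2 fold changes of -0.16 (SE 0.0715) for Taf1a, -0.08 (SE 0.0711) for Taf1b and -0.19 (SE 0.146) for Taf1c. Taf1a was called lower under 3 of 14 alternative settings, the fit without expressing 1 among them (adjusted p = 0.0304).

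**Figure D3:**
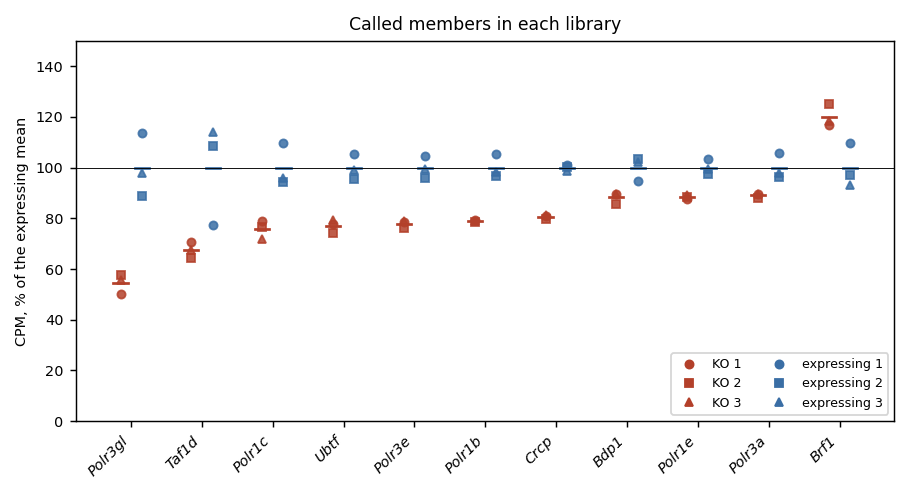
CPM of 11 of the members that passed the threshold as a percent of the expressing mean (vertical axis), with each library as a point and each group mean as a bar, KO left of expressing cells for each gene. KO lies below expressing cells for 10 genes and above for Brf1, and expressing 1 lies nearest to KO for Taf1d.

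Among the 11 Pol III subunits, 5 were lower in KO (45.5%, against 20.8% of all genes tested) and 0 were higher (against 19.2%). No subunit was higher by DESeq2 or at an unadjusted p under 0.05. Polr3k was called higher under 4 of 14 alternative settings. Polr3a, the catalytic subunit, had 106, 104 and 106 CPM in KO, against 125, 114 and 116 CPM in expressing cells. The groups did not overlap, but the change was small (log2 fold change -0.17, SE 0.0586, adjusted p = 0.0489), and the call was lost under 9 of 14 alternative settings. Polr3b, the other large subunit of the catalytic core, had 149, 147 and 148 CPM in KO, against 154, 161 and 162 CPM in expressing cells. It did not pass (log2 fold change -0.10, SE 0.0528, adjusted p = 0.152), although no KO library reached the expressing range. Under 2 of 14 alternative settings Polr3b was called lower. Polr3e, which belongs with Polr3d to a module that acts in initiation and termination, had 73.7, 71.4 and 73.8 CPM in KO, against 98.0, 89.8 and 93.2 CPM in expressing cells. Its KO mean was 77.9% of the expressing mean, with no overlap (log2 fold change -0.36, SE 0.0594, adjusted p = 0.00127). For Polr3d itself the log2 fold change was 0.04 (SE 0.0599).

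Crcp, which encodes a subunit of the Pol III stalk, had 27.9, 27.4 and 28.0 CPM in KO, against 34.8, 34.6 and 33.9 CPM in expressing cells. These were tight, separate groups, and the log2 fold change was -0.31 (SE 0.0638, adjusted p = 0.00417). For Polr3k, which encodes the subunit for transcript cleavage, the log2 fold change was 0.18 (SE 0.0949). It passed with library totals (adjusted p = 0.0355), without expressing 2 (0.0415) and with the GC trend removed, without the replicate block (0.0433) or with it (0.0424).

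Polr3c, Polr3f and either Polr3g or Polr3gl encode the trimer that opens the promoter. Polr3g is known as the form abundant in pluripotent cells and Polr3gl as the form of most other tissues. Polr3gl (ENSMUSG00000028104, chr3:96577872-96594181) was the member with the largest change, with 2.18, 2.51 and 2.42 CPM in KO, against 4.93, 3.86 and 4.24 CPM in expressing cells. These rest on 76, 113 and 125 counts in KO and 154, 170 and 155 counts in expressing cells. KO was below expressing cells in every pair of libraries, and the KO mean was 54.5% of the expressing mean (log2 fold change -0.86, 95% interval -1.18 to -0.55, SE 0.139, adjusted p = 0.00112). The overlapping gene on the other strand, Gm16253, had 2 to 9 counts in KO and 4 to 7 counts in expressing cells. Polr3g (ENSMUSG00000035834, chr13:81673843-81711013) had 156, 148 and 164 CPM in KO, against 139.5, 173 and 171 CPM in expressing cells. The groups overlapped through expressing 1, and it did not pass (log2 fold change -0.05, SE 0.0870, adjusted p = 0.682). Without expressing 1 the log2 fold change was -0.12, with an adjusted p of 0.0192. For Polr3c the log2 fold change was -0.03 (SE 0.0727). Polr3f had 90.4, 87.9 and 92.3 CPM in KO, against 72.9, 99.1 and 102 CPM in expressing cells, on both sides of KO. Without expressing 1 its log2 fold change was -0.13, with an adjusted p of 0.0138.

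Per kilobase of merged exons, Polr3g averaged 39.6 CPM per kb in KO and 41.0 in expressing cells, while Polr3gl averaged 1.48 in KO and 2.72 in expressing cells. Polr3g therefore made up 96.7%, 96.0% and 96.5% of the pair in KO, against 92.0%, 94.8% and 94.3% in expressing cells. Every KO library was above every expressing library, with means of 96.4% ± 0.358 in KO and 93.7% ± 1.49 in expressing cells (SD, n = 3 each). The difference of 2.71 percentage points had an exact two-sided permutation p = 0.1, the smallest that 3 against 3 libraries allow. Per length, Polr3g exceeded Polr3gl 29.1, 23.9 and 27.4 times in KO, and 11.5, 18.2 and 16.4 times in expressing cells.

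**Figure D4:**
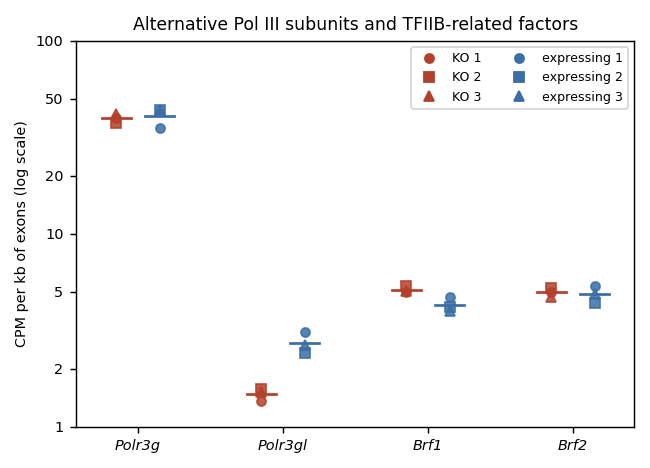
CPM per kilobase of merged exons (log axis) of the alternative Pol III subunits Polr3g and Polr3gl and of the TFIIB-related factors Brf1 and Brf2, with each library as a point and each group mean as a line, KO left of expressing cells. Polr3g lies near 40 in both groups, Polr3gl is lower in KO, and Brf1 is higher in KO than in expressing cells.

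In TFIIIB, Brf1 was the single member of the machinery that was higher in KO. Brf1 (ENSMUSG00000011158, chr12:112960085-113000704), the factor for tRNA and 5S genes, had 38.8, 41.6 and 39.3 CPM in KO, against 36.5, 32.3 and 30.9 CPM in expressing cells. The KO libraries were all above the expressing libraries, and the log2 fold change was 0.27 (SE 0.0794, adjusted p = 0.0247). The call was lost without any 1 of KO 1, KO 2, KO 3, expressing 2 or expressing 3 (adjusted p up to 0.105), and the log2 fold change stayed between 0.22 and 0.36. Brf2, the factor for U6 and 7SK, had 16.1, 16.8 and 15.04 CPM in KO, against 17.2, 14.1 and 15.7 CPM in expressing cells. The groups overlapped (log2 fold change 0.03, SE 0.0954, adjusted p = 0.832). The exons of Brf2 overlap those of Adgra2 on the other strand, which had 316, 537 and 525 counts in KO, against 365, 477 and 377 in expressing cells. The share of such reads in the Brf2 counts was not tested. Per length, Brf2 was 50.2%, 49.5% and 48.1% of the Brf1 and Brf2 total in KO, against 53.4%, 51.4% and 55.3% in expressing cells, a difference of -4.10 percentage points (exact two-sided permutation p = 0.1). Bdp1, the TFIIIB subunit used at all Pol III promoters, had 195, 186 and 195 CPM in KO, against 205, 224 and 222 CPM in expressing cells. KO was below in each library (log2 fold change -0.18, SE 0.0581, adjusted p = 0.0345), and 9 of 14 alternative settings ended that call.

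None of the 6 TFIIIC genes passed in the reported edgeR fit (against 40.0% of all genes tested), and 0 had an unadjusted p under 0.05. DESeq2 called 0 of them (against 31.3% of all genes it tested). Gtf3c1, whose protein contacts the B box, had 234, 250.1 and 244 CPM in KO, against 243, 195 and 203 CPM in expressing cells. Expressing 1 lay within the KO range and the other expressing libraries below it (log2 fold change 0.19, SE 0.0830, adjusted p = 0.103), and without expressing 1 the log2 fold change was 0.32 with an adjusted p of 2.27e-08. The log2 fold change was -0.18 (SE 0.0804) for Gtf3c5, which contacts the A box region, and -0.10 (SE 0.0537) for Gtf3c4. It was -0.10 (SE 0.0614) for Gtf3c2, 0.03 (SE 0.0915) for Gtf3c3 and 0.07 (SE 0.0607) for Gtf3c6. Gtf3c1 was called higher under 5 of 14 alternative settings. Gtf3c6 was called higher with library totals (adjusted p = 0.0477), and Gtf3c2 lower without expressing 1 (adjusted p = 0.0205).

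The 5 SNAPc genes likewise gave 0 calls in the reported edgeR fit (against 40.0% of all genes) and 0 in DESeq2 (against 31.3%), with 1 unadjusted p under 0.05. That gene was Snapc5, with 26.9, 28.8 and 31.8 CPM in KO, against 23.9, 26.9 and 24.4 CPM in expressing cells (log2 fold change 0.22, SE 0.0866, adjusted p = 0.0700). For Snapc4, the large DNA-binding subunit, the log2 fold change was -0.11 (SE 0.0902). Snapc1 had 0.14 (SE 0.111), Snapc2 0.21 (SE 0.147) and Snapc3 0.01 (SE 0.0969) on the same scale. The exons of Snapc3 overlap those of Psip1 on the other strand (13630 to 23655 counts per library), and the share of such reads was not tested. Snapc2 passed without expressing 1 (log2 fold change 0.42, adjusted p = 0.000995) and with the GC trend removed (0.31, adjusted p = 0.00918). Snapc5 passed under 4 of 14 alternative settings. Maf1, which represses Pol III when nutrients or growth signals are short, had 48.8, 46.1 and 46.7 CPM in KO, against 56.6, 48.3 and 51.1 CPM in expressing cells. KO 1 lay within the expressing range, and Maf1 did not pass (log2 fold change -0.14, SE 0.0742, adjusted p = 0.164).

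Per length, the highest level among the members was that of Rrn3, at 87.7 CPM per kb in KO and 92.3 in expressing cells. The next levels were lower, with 40.7 CPM per kb in KO and 53.6 in expressing cells for Polr1c. Gtf3c6 had 41.3 CPM per kb in KO and 39.4 in expressing cells, close to the values of Polr3g. The lowest level was that of Polr3gl in KO and that of Snapc1 in expressing cells, where Snapc1 had 2.70 CPM per kb in KO and 2.45 in expressing cells. Merged exons include long untranslated regions, so such levels depend on the annotation.

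Genes that work beside the machinery were read as lists, beside the 20.8% of all genes tested that were lower and the 19.2% that were higher. Of 3 further Pol I subunits, Cd3eap, the dimer partner of Polr1e, was lower (log2 fold change -0.23, adjusted p = 0.0236, a call lost without each KO library, without expressing 3 and with library totals), and Twistnb and Znrd1 did not pass. Of 10 shared subunits and partners, 2 were lower and 1 was higher (median -0.19). Zfp143, an activator of snRNA genes, had a log2 fold change of -0.39 (adjusted p = 0.00126), Polr2h, a subunit of all 3 nuclear polymerases, -0.36 (adjusted p = 0.00267), and Gtf3a, the 5S gene factor TFIIIA, 0.24 (adjusted p = 0.0262). The Gtf3a call was lost without each KO library and without expressing 2 or 3. Tbp, used by all 3 polymerases, had 91.1, 93.2 and 96.6 CPM in KO, against 90.2, 107 and 101 CPM in expressing cells. Of 8 subunits particular to RNA polymerase II, 4 were lower and 1 was higher (median -0.19). Its largest subunit gene Polr2a was higher in KO, at 996, 951 and 988 CPM, against 752, 629.7 and 605 CPM in expressing cells (log2 fold change 0.56, adjusted p = 0.000548). Polr2i was lower (log2 fold change -0.70, adjusted p = 0.000176). Polr2g was lower too (-0.22, adjusted p = 0.0167). Leaving out any 1 KO library, or using library totals, left 1 of these subunits called lower.

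Among 12 regulators of ribosomal RNA synthesis, 4 were lower and 2 were higher (median -0.03). Baz2a, a silencer of ribosomal repeats, had a log2 fold change of -0.49 (adjusted p = 0.000256), and Nolc1, a nucleolar phosphoprotein, one of -0.46 (adjusted p = 0.000494). Cavin1, a caveola protein also described as a Pol I release factor, had one of 0.83 (adjusted p = 1.85e-05). Among 12 upstream regulators of both enzymes, 5 were lower and 2 were higher (median -0.11). Mycn, a MYC-family activator, had 206, 199 and 207 CPM in KO, against 358, 344 and 360.3 CPM in expressing cells (log2 fold change -0.79, adjusted p = 7.34e-06). Rb1, which encodes a repressor of Pol I and Pol III, had 60.7, 62.8 and 65.9 CPM in KO, against 19.8, 31.5 and 35.4 CPM in expressing cells (log2 fold change 1.12, adjusted p = 0.000796). Mnt, a MAX-binding repressor that competes with MYC, had a log2 fold change of -0.59 (adjusted p = 0.000859).

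Of 18 genes that mature or export tRNA, 9 were lower in KO (50%, against 20.8% of all genes tested). In the other direction, 0 were higher (against 19.2%), and 0 also by DESeq2 and at an unadjusted p under 0.05. The median was -0.26, against -0.01 for all genes, and 17 of the 18 had a negative log2 fold change. Xpot, the tRNA export receptor, had 193, 186 and 195 CPM in KO, against 261, 289.9 and 304 CPM in expressing cells (log2 fold change -0.58, adjusted p = 0.000161). Rpp25, a protein of RNase P and RNase MRP, had a log2 fold change of -0.74 (adjusted p = 0.000461). Across the alternative settings, 6 to 12 of the 18 were called lower, and 1 was called higher without expressing 1 and with the GC trend removed.

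**Figure D5:**
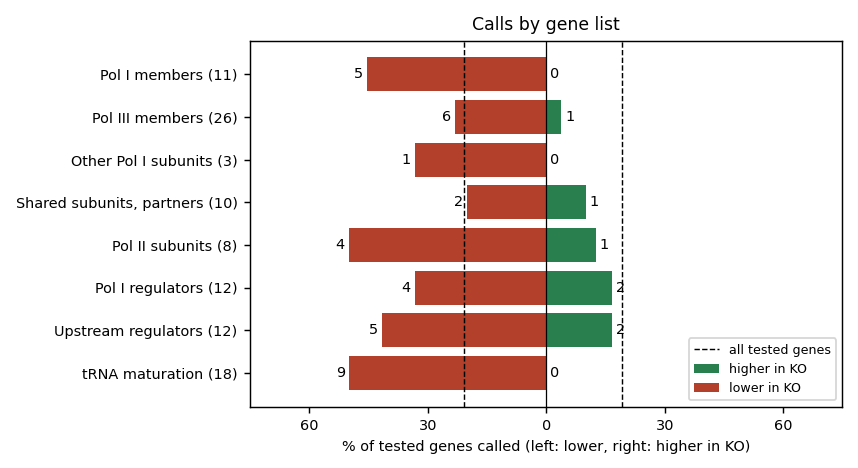
Percent of the tested genes of each list that were lower (left) or higher (right) in KO at an adjusted p under 0.05, with the number called beside each bar, list sizes in parentheses, and dashed lines at the shares of all 17778 tested genes. Among the 8 lists drawn, the bars of the tRNA maturation and Pol II subunit lists reach farthest to the left, at 50% each. Polr1c and Polr1d, shared by Pol I and Pol III, are counted with Pol I.

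Transcripts made by Pol III could be read only poorly, since the libraries were selected for poly(A). Of 16 names of Pol I and Pol III transcripts looked for, 12 were matched, all made by Pol III. The ribosomal RNA names were not matched, so no Pol I transcript was read. Rn7sk, the RNA that holds P-TEFb inactive, was the 1 gene tested. It had 35, 47 and 368 counts in KO, against 22, 17 and 12 counts in expressing cells. KO 3 stood far above the other libraries, and the log2 fold change of 2.78 (SE 0.873, adjusted p = 0.0336) was 1.14 without KO 3. The call was lost without each expressing library, with the GC trend removed and with no filter. KO 3 also had the most counts of Rny1 (16) and Rny3 (8), which had 0 to 2 counts in every other library. Rmrp, Rprl1, Rprl2, Rn7s1, Rn7s2 and Rn7s6 had 0 counts in all 6 libraries, and 3 counts correspond to 0.0581 to 0.0961 CPM. That limit covers counting error only.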

How the data were processed

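The deposited table holds raw read counts for 6 poly(A) libraries prepared with a strand-specific kit, per the labels. The submitters' processing notes name the aligner STAR 2.5.3a, the counter HTSeq 0.6.1p1, the trimmer cutadapt 1.10, bcl2fastq 2.20.0.422 and the build mm10. Neither the counting strand nor the annotation release is stated in the sources used here. Totals ran from 31219328 to 50328010 counts, and the common biological coefficient of variation was 9.05%.

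All 55401 identifiers entered edgeR 4.0.16 (R 4.3.3): filterByExpr with a minimum count of 10 and a minimum total of 15, TMM scaling, and the quasi-likelihood test with robust dispersion, group as the only term. Benjamini-Hochberg adjustment ran over the 17778 tested genes, with a threshold of 0.05. The test was checked on simulated counts, drawn for every gene at the common coefficient of variation. That check does not cover the deviation of expressing 1. CPM used TMM-scaled library sizes, standard errors and 95% intervals came from the F statistic, and CPM per kb used merged GENCODE M21 exons. Shares of gene pairs were tested by exact permutation with Python 3.11.15. Alternatives were DESeq2 1.42.0, other scalings and filters, a GC correction, a replicate block and leaving out each library.

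The members and lists were chosen with earlier results of these data known, and the promoter motifs after the values were seen. Full values are given for members past the threshold with an absolute log2 fold change of 0.5 or more, and for the main subunits and factors. In each companion list, up to 3 called genes of the smallest p have a log2 fold change and adjusted p, some with library values. Values of other members were added after they were seen. The values of 1 member and of 1 companion gene are not reported here, and both stay in the counts and medians of their lists.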

Additional observations from a re-analysis of the deposited data

How the results depend on the processing

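Of the 12 calls among the members, those of Polr1b, Polr1c, Ubtf, Taf1d, Polr3e, Polr3gl and Crcp held under all 14 alternatives, and 5 calls, those of Polr1e, Polr3a, Bdp1 and Brf1 among them, were lost in at least 1. Of the 25 members that did not pass, 12 passed in at least 1. The number called higher was 5 with library totals, 2 with no filter and 6 with the GC trend removed, against 1 reported, and 0 to 5 when a library was left out. The number called lower was 7 with library totals and 7 to 17 when a library was left out, 17 being without expressing 1. Of all genes, 40.0% were called as reported, 39.6% with library totals, 23.1% with no filter, 52.7% with the GC trend removed, 50.9% without expressing 1 and 28.8% to 37.3% without any 1 of the other libraries. The median of all genes was 0.08 with library totals, against -0.01, and 63.5% of their calls were higher, against 48.1%. With library totals, Polr1a (0.0257), Rrn3 (0.0184), Taf1b (0.0115), Polr3c (0.0585), Polr3f (0.0760) and Polr3g (0.0432) turned positive and passed in neither fit. With the GC trend removed, Polr3c (0.00793), Gtf3c3 (-0.00893) and Snapc3 (-0.0318) changed sign and passed in neither fit. Leaving out 1 library gave log2 ranges that crossed 0 for Polr1a (-0.0871 to 0.0179), Taf1c (-0.305 to 0.0361), Polr3c (-0.0662 to 0.0700), Polr3f (-0.127 to 0.0784), Polr3g (-0.115 to 0.00683), Brf2 (-0.0458 to 0.128), Gtf3c3 (-0.0418 to 0.103), Snapc3 (-0.0591 to 0.102) and Snapc4 (-0.177 to 0.0282). The cause of these changes was not tested. The Polr3g share differed by 1.86 to 3.27 points and the Brf2 share by -5.06 to -3.14 points with a library left out, and neither test can reach 0.05 with 3 libraries per group. The unstated counting strand, the shared doxycycline and KO label, and poly(A) selection limit what the values can show.

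The replicate numbers share no stated batch, and same-numbered libraries did not deviate together (correlations 0.024, -0.034 and 0.042). With the replicate block, 1 member was higher and 8 were lower, and the share differences were 2.71 and -4.10 points (exact p = 0.25 for both). The block together with GC removal gave 4 higher and 12 lower, with Polr3c at 0.00955, Gtf3c3 at -0.00929 and Snapc3 at -0.0328.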
